A study of Homo sapiens with 12 samples.

Results

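Transfection of HEK293T cells with an siRNA against Tudor-SN was followed by a shift in 201 of the 406 mature microRNAs (miRNAs) that could be measured in the libraries made from total RNA, with 94 higher and 107 lower. The deepest losses were those of miR-16-2-3p and miR-195-3p, which fell by 2.67 and 2.40 on the log2 scale. Both are strands usually discarded from the miR-15/16 family of hairpins, but miR-195-3p was the more abundant strand of its hairpin in the controls. miR-378a-3p, miR-126-5p, miR-375 and miR-33b-5p were 1.96, 2.02, 2.60 and 3.09-fold higher. In 5 hairpins the arms moved in opposite directions. The measured miRNAs are the 406 of 2588 annotated entries with 10 or more reads counted in at least 3 of the 6 libraries, a rule that uses abundance but not the siRNA.

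HEK293T is a line of human embryonic kidney origin with the large T antigen of SV40. Both groups were the same cell line, grown alike and transfected with an siRNA. The controls received the Control (Ctl) siRNA and the other group the Tudor-SN siRNA, with 3 libraries of each in run 2. Run 2 was made from total RNA with adapter ligation to both ends, 12 cycles of PCR, size selection on a Pippin Prep and single-end 50-nt reads on a HiSeq, whereas run 1 of the same comparison used a fraction of short RNA. The labels give no siRNA sequence, dose or time after transfection, and do not say whether the replicates were separate cultures, so the p-values describe the spread between libraries alone, which may be technical. SND1 mRNA, which encodes Tudor-SN, is not in a small RNA table, so the knockdown itself was not checked here.

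A miRNA is cut as a duplex from a hairpin precursor, and 1 strand of the duplex, from the 5p or the 3p arm, is loaded into Argonaute while its partner is usually lost. Bases 2 to 8 of the loaded strand, the seed, pair with target mRNAs, so miRNAs with 1 seed share most targets. Tudor-SN is a nuclease of RNA-induced silencing complexes that has been described to cut mature miRNAs at CA and UA dinucleotides lying more than 5 bases from either end, a route named TumiD. The series asked which miRNAs this route removes.

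The following sequences are those on which the changes turned. They come from RefSeq (GRCh38.p14), are written 5′ to 3′ and carry the seed in capitals. The first 4 are the arms of 2 hairpins of the miR-15/16 family, shown because the 3p arms share a seed and both fell, while the 5p arms, which also share a seed, had log2 fold changes of -0.17 and -0.21. miR-16-2-3p lies at chr3:160404797-160404818 (+) and miR-195-3p at chr17:7017628-7017649 (-).
miR-16-2-3p: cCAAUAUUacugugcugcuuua
miR-195-3p: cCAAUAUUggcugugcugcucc
miR-16-5p: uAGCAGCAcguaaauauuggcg
miR-195-5p: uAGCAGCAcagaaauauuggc
The next 5 are miR-25-5p and the seed family of its partner arm, shown because every measured member of the family rose while miR-25-5p, cut from the same hairpin as miR-25-3p, fell. miR-25-5p lies at chr7:100093610-100093630 (-) and miR-25-3p at chr7:100093571-100093592 (-).
miR-25-5p: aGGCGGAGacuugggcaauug
miR-25-3p: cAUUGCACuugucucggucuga
miR-92a-3p: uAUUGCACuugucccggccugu
miR-92b-3p: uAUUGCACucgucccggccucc
miR-32-5p: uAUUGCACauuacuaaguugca
The last 4 are the miR-181 guides, shown because 1 seed was split between both directions. miR-181a-5p and miR-181b-5p each have hairpins on chromosomes 1 and 9, and miR-181c-5p and miR-181d-5p have theirs on chromosome 19.
miR-181a-5p: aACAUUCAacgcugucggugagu
miR-181b-5p: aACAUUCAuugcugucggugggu
miR-181c-5p: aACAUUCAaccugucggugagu
miR-181d-5p: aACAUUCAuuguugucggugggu

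The 6 libraries held 927727, 1653077 and 1115569 miRNA counts in the controls and 3140214, 2838965 and 1710708 after Tudor-SN siRNA. Each Tudor-SN library was thus deeper than each control library, and depth and siRNA cannot be told apart. Tudor-SN replicate 3 stood apart from its group, with a chi-square per degree of freedom of 47.3 and 26.7 against replicates 1 and 2, where the other replicate pairs of run 2 gave 4.09 to 11.3. Of the members, 72 reached 10 counts in all 3 Tudor-SN libraries but in at most 2 controls, against 5 in the reverse case, and 17 members reached 10 in none of the controls, of which 8 were called higher. The part of depth in this was not tested. The third-highest count was exactly 10 for 19 members just inside the rule, with totals over the 6 libraries of 40 to 88, and 9 for 15 entries just outside it, with totals of 32 to 69. The members held at least 99.9% of the counts in each library.

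With TMM scaling, which holds most miRNAs close to no change, 23.2% of the members were higher and 26.4% lower by edgeR's quasi-likelihood test at an adjusted p of 0.05, and 205 did not pass. A higher or lower level is thus one relative to the bulk of miRNAs, and in bulk RNA a smaller number of cells that express a miRNA and less of it per cell cannot be told apart. The median log2 fold change was -0.05. The change reached 2-fold in 18 increases and 34 decreases. The groups did not overlap for 232 members (57.1%), of which 197 were called. Without Tudor-SN replicate 3 the counts were 81 higher and 91 lower. Without the 17 members that reached 10 counts in no control they were 86 and 107 of 389. The balance of directions depended on the scaling: upper quartile scaling gave 124 higher and 75 lower (median 0.10), library size alone 106 and 76 (median 0.07), a fit without a filter on low counts 106 and 77, and a fit scaled over the 12 libraries of both runs 148 and 50 (median 0.28).

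**Figure D1:**
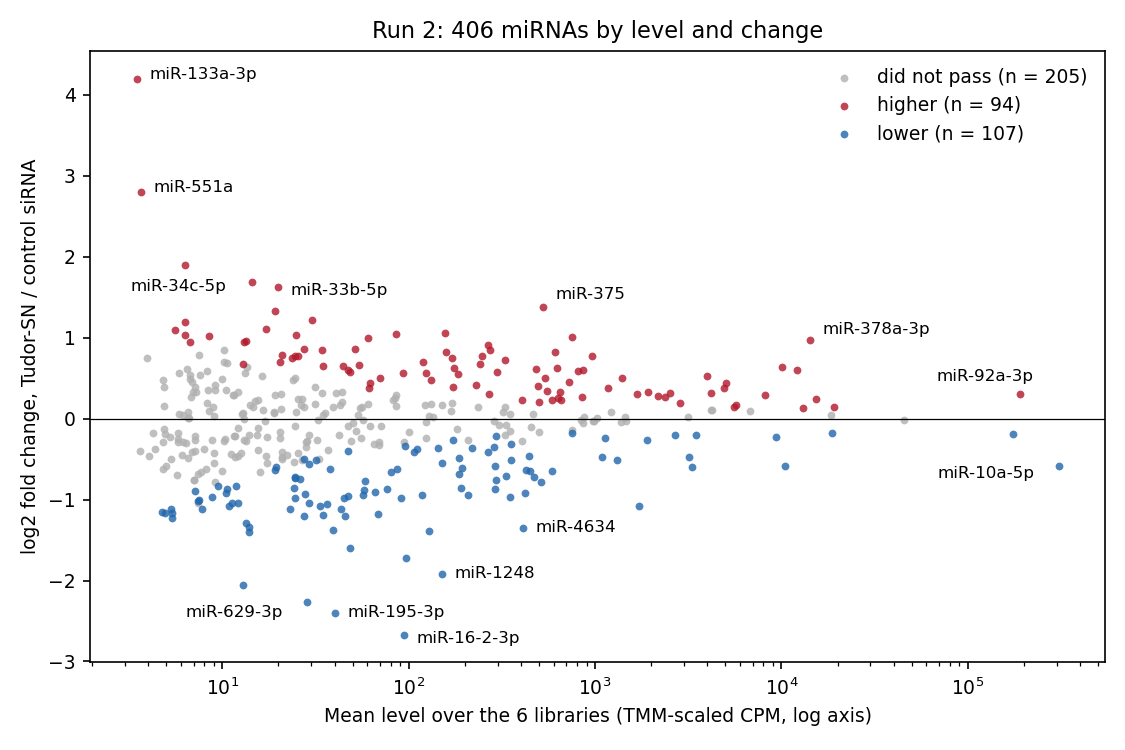
Log2 fold change after Tudor-SN siRNA (vertical axis) against the mean level over the 6 libraries in TMM-scaled counts-per-million, CPM (horizontal axis, log scale). Each point is 1 of 406 miRNAs, with the 94 higher in red, the 107 lower in blue and the 205 that did not pass in grey; the largest changes lie at low levels and the called changes of abundant miRNAs are small.

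The share called rose with abundance. Among 83 members below 10 TMM-scaled counts-per-million (CPM), 22.9% were called in either direction, with a median standard error of 0.39 on the log2 scale. The share was 43.8% of 176 members from 10 to 100 CPM, 69.0% of 100 from 100 to 1000 CPM and 76.6% of 47 from 1000 CPM up, where the median standard error was 0.06, against 49.5% of all members. The median size of the change went the other way, from 0.49 in the lowest class to 0.27 in the highest. The higher miRNAs together held 29.1% of the counts in controls and 40.1% after Tudor-SN siRNA. The lower ones held 60.9% and 49.0%, most of which was miR-10a-5p: without it their shares were 25.6% and 23.4%. Both sets were formed by the calls in these same libraries, so the directions of these shares follow from the calls.

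The most abundant miRNA, miR-10a-5p, is encoded among the HOXB genes. It was at 378006, 341955 and 384179 CPM in the controls and at 227179, 241698 and 269788 CPM after Tudor-SN siRNA, so that every Tudor-SN library lay below every control. The log2 fold change was -0.58 (SE 0.07, edgeR adjusted p = 1.3e-06). Its near-identical partner miR-10b-5p, from the HOXD genes, was at 193157, 172027 and 195331 CPM against 150068, 160610.2 and 182109.6 CPM. These groups overlapped, and its call at -0.19 (SE 0.07, adjusted p = 0.036) ended under RLE scaling (-0.15, adjusted p = 0.098) and 10 other alternatives and turned in the fit over 12 libraries (0.15, adjusted p = 0.097). Reads can be shared between the pair, so their separate values are uncertain.

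Of the 12 largest decreases, the first was miR-16-2-3p, whose hairpin lies in an intron of SMC4, a condensin subunit. It was at 186, 164 and 139 CPM in the controls and at 28.8, 21.6 and 26.1 CPM after Tudor-SN siRNA. The groups lay far apart, with a log2 fold change of -2.67 (SE 0.15, edgeR adjusted p = 1.8e-10). Its partner strand miR-16-5p, a repressor of cyclins and BCL2 that also comes from a hairpin on chromosome 13, was at 19709 ± 783 in the controls and 17495 ± 332 after Tudor-SN siRNA, in CPM (SD, n = 3 and 3). That change of -0.17 (SE 0.05) passed with TMM, but it ended under upper quartile scaling (-0.02) and turned in the fit over 12 libraries (0.16). miR-195-3p, cut from a hairpin in an exon of MIR497HG, was at 60.7, 71.8 and 72.5 CPM in the controls and at 14.3, 14.8 and 8.11 CPM after Tudor-SN siRNA. It fell by 2.40 on the log2 scale (SE 0.20, adjusted p = 2.3e-08), again with no overlap. Its partner miR-195-5p, from the same family as miR-16-5p, was at 13.8, 17.5 and 4.77 CPM against 9.51, 12.1 and 11.6 CPM, within the spread of the controls. Both 3p strands carry GUGCUGC towards the 3′ end, a string picked after their values were seen and searched on the miRNA strand only. It stands in 3 of the 356 members with a sequence (0.843%) and in 9 of 2370 RefSeq mature miRNAs (0.380%), and the third member that holds it, miR-324-3p, was higher (0.96, SE 0.28).

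Both arms of miR-629, a hairpin in an intron of the transcriptional corepressor TLE3, were among the 12. miR-629-3p was at 41.3, 53.7 and 45.8 CPM in the controls and at 9.80, 11.1 and 8.11 CPM after Tudor-SN siRNA, and miR-629-5p, the more abundant arm, at 165, 209 and 187 CPM and 77.2, 75.2 and 60.8 CPM. Neither arm overlapped between groups, with log2 fold changes of -2.27 (SE 0.21) and -1.39 (SE 0.13). The arms of miR-582, in an intron of the phosphodiesterase gene PDE4D, also fell together, miR-582-5p by 1.37 (SE 0.18) and miR-582-3p by 0.85 (SE 0.10) on the log2 scale. miR-4661-3p (-2.05, SE 0.32) and miR-4661-5p (-1.20, SE 0.20) did so as well, the former from 14, 49 and 17 counts to 19, 13 and 10 counts.

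miR-125b-2-3p, the strand usually discarded from a chromosome 21 hairpin of the miR-125 family, was at 147, 171 and 128 CPM in the controls and at 49.0, 47.9 and 37.1 CPM after Tudor-SN siRNA, with no overlap. It fell by 1.72 on the log2 scale (SE 0.14, edgeR adjusted p = 2.3e-08). miR-25-5p, from an intron of the replication helicase gene MCM7, was at 64.2, 82.1 and 71.5 CPM against 22.9, 28 and 21.4 CPM. Its decrease of 1.59 (SE 0.17) also left no overlap. miR-196a-3p, from a hairpin within HOXC6, changed by -1.40 (SE 0.28). miR-3662, from an intron of HBS1L, changed by -1.34 (SE 0.29), and miR-4634 by -1.35 (SE 0.09) from 578, 545 and 643 CPM to 212, 253 and 227 CPM. The last of the 12, miR-1248, overlaps an exon of the translation factor gene EIF4A2 and is on the list of entries that overlie other kinds of noncoding RNA. Its control libraries spread widely, at 214, 150.3 and 346 CPM, and still lay above the 42.5, 58.0 and 92.1 CPM of the Tudor-SN libraries (-1.92, SE 0.25). The calls of these 12 miRNAs held under all 17 alternatives to the TMM fit that were run.

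**Figure D2:**
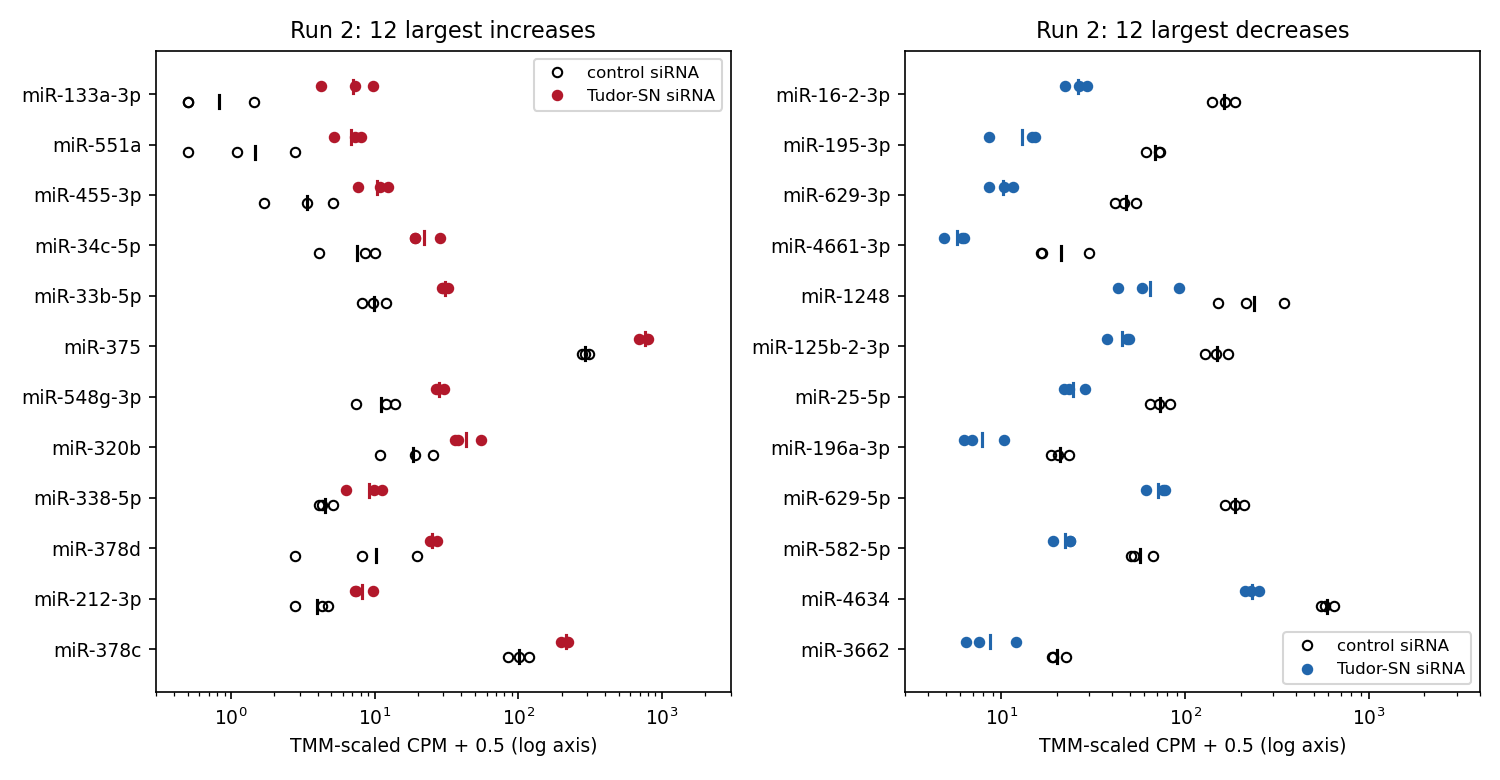
Levels of the 12 largest increases (left) and 12 largest decreases (right) in each library, as TMM-scaled CPM plus 0.5 on a log axis. Open circles are the 3 control libraries, filled circles the 3 Tudor-SN libraries and vertical ticks the group means; the groups do not overlap in any row, and the control counts of miR-133a-3p, miR-551a and miR-455-3p are near 0.

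Of the increases, miR-375, a regulator of insulin secretion in pancreatic islets, combined size and abundance. It was at 309, 290.3 and 278 CPM in the controls and at 801, 781 and 695 CPM after Tudor-SN siRNA. Every Tudor-SN library lay far above every control, and the log2 fold change was 1.38 (SE 0.08, edgeR adjusted p = 1.8e-10). miR-33b-5p, which lies in an intron of the sterol regulator SREBF1 and represses the cholesterol exporter ABCA1, was at 9.17, 11.5 and 7.63 CPM against 32.1, 28.7 and 29.5 CPM, without overlap (1.63, SE 0.25). Its partner miR-33b-3p was at 9.17, 9.05 and 14.3 CPM against 11.3, 15.9 and 13.3 CPM and did not pass (0.33, SE 0.30). miR-34c-5p, a p53-induced repressor of cell cycle genes, rose from 7, 6 and 10 counts to 63, 55 and 48 counts (1.68, SE 0.35). In the authors' deposited table its log2 fold change was 1.61 with an adjusted p of 0.000423.

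Several members of the miR-378 family, of which miR-378a lies in an intron of PPARGC1B and acts on mitochondrial metabolism, were measured and each was higher. miR-378a-3p was at 9781, 9845 and 9318 CPM in the controls and at 19168, 19034 and 18399.7 CPM after Tudor-SN siRNA, the largest rise among the 10 most abundant miRNAs. The change was 0.97 (SE 0.05, edgeR adjusted p = 1.1e-10), and its passenger miR-378a-5p changed by 0.86 (SE 0.15). miR-378c, which shares its seed with miR-378a-3p, was at 84.8, 117 and 101 CPM against 220.5, 219 and 199 CPM (1.05, SE 0.12). miR-378d, with 2, 32 and 8 counts against 89, 71 and 41, had controls from 2.29 to 19.3 CPM, and its call at 1.11 ended without control replicate 1 (0.76, adjusted p = 0.065). Counts of this family can be shared between copies.

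Both arms of miR-126, an endothelial miRNA from an intron of EGFL7, rose. miR-126-5p was at 499, 516 and 478 CPM in the controls and at 1091, 1000.2 and 919 CPM after Tudor-SN siRNA. miR-126-3p was at 60.7, 50.7 and 56.3 CPM against 116, 108 and 119 CPM. Neither overlapped, at 1.01 (SE 0.07) and 1.04 (SE 0.13). miR-455 lies in an intron of the collagen gene COL27A1. Its 5p arm rose, since miR-455-5p was at 40.6 ± 12.1 in the controls and 80.3 ± 6.27 after Tudor-SN siRNA, in CPM (SD, n = 3 and 3; 1.0, SE 0.17), while miR-455-3p rested on 4, 2 and 3 counts in the controls and 24, 35 and 18 after Tudor-SN siRNA. Its share of all counts was 4.11 times higher, with a 95% interval of 2.06 to 9.33 that covers counting error only.

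The largest fitted increases were those of miRNAs almost absent from the controls. Of the 12, miR-133a-3p, miR-551a, miR-455-3p, miR-338-5p and miR-212-3p reached 10 counts in no control and met the limit on counts through the Tudor-SN libraries alone. Entry through the group where a member is high favours a difference, so their values and ranks are given as a description. Of the 17 members that reached 10 counts in no control, 9 did not pass. miR-133a-3p, a muscle miRNA, was counted 0, 0 and 1 times in the controls against 23, 11 and 16 times after Tudor-SN siRNA. The ratio of its shares was 24, with an interval of 4.12 to 968, so the size is uncertain. miR-551a, from an intron of MEGF6, had 2, 1 and 0 counts against 23, 14 and 13, a ratio of 8.01 with an interval of 2.59 to 40.2. In the authors' deposited table these 2 miRNAs had log2 fold changes of 2.58 and 2.02 and no adjusted p. The other muscle markers did not accompany miR-133a-3p: miR-1-3p had 1, 0 and 0 counts against 2, 3 and 1, and miR-206 had 0 in all 6 libraries. The remaining increases of the 12 were miR-548g-3p (1.32, SE 0.25), miR-320b (1.22, SE 0.25), miR-338-5p (1.2, SE 0.40) and miR-212-3p (1.09, SE 0.41). The last of these, a CREB-induced miRNA of neurons, had 2, 7 and 4 counts against 31, 20 and 12, and its call ended under 6 alternatives, DESeq2 among them (adjusted p = 0.145). The call of miR-338-5p, from an intron of AATK, ended under DESeq2 (adjusted p = 0.109) and without control replicate 2 (adjusted p = 0.097).

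Of 17 markers of other cell types, 7 were measured, with 5 called higher and 0 lower, against 23.2% higher over all members. Of the 5, miR-133a-3p and miR-9-3p reached 10 counts in no control, and the others were miR-126-3p, miR-375 and miR-486-5p. Leukocyte miR-142-3p, miR-223-3p and miR-150-5p and epithelial miR-205-5p had 0 counts in all 6 libraries, while epithelial miR-200c-3p had 10, 22 and 12 counts against 26, 23 and 14 (-0.64, SE 0.29) and did not pass. Liver miR-122-5p, erythroid miR-451a and neural miR-124-3p had 1 count each. Epithelial miR-203a matched no entry under that name, so its counts are not known here. Red cell miR-486-5p, measured at 2752, 2600.3 and 2632 CPM in the controls, rose to 2895, 3063 and 3187 CPM (0.20, SE 0.06). The neural miR-9-5p did not pass (-0.02, SE 0.07; 0.32 in the fit over 12 libraries), whereas its partner miR-9-3p had 4, 8 and 3 counts against 32, 24 and 14, with a call that ended under DESeq2 and limma-voom and without any 1 control library. Of the miRNAs typical of this line, miR-10a-5p (-0.58) and miR-10b-5p (-0.19, a call that ended under RLE scaling) were abundant in all libraries and called lower. The third, miR-196a-5p, had 706 to 2692 counts and did not pass (-0.06). The part of other cells in the changes was not tested.

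Families were formed over the 356 members with a RefSeq sequence, which leaves out the other 50. Among those with 1 seed and at least 3 such members, that of miR-25, miR-32, miR-92a and miR-92b, which in part comes from the MYC-induced clusters around miR-17, was the one with every member called in 1 direction. miR-92a-3p was at 173591, 171543 and 163567 CPM in the controls and at 218209, 216421 and 193949 CPM after Tudor-SN siRNA, and the groups did not overlap (0.31, SE 0.06). miR-92b-3p, from chromosome 1, was at 9367, 9741 and 9925 CPM against 15221, 15166 and 13527 CPM (0.60, SE 0.06). miR-25-3p changed by 0.25 (SE 0.05) and miR-32-5p, from an intron of TMEM245, by 0.66 (SE 0.16). All 4 calls held under each of the scalings tried and without Tudor-SN replicate 3. The seed family of miR-17-5p, which represses the cell cycle inhibitor CDKN1A, had 3 of 5 members higher and 0 lower. Of these miR-17-5p rose by 0.53 (SE 0.06) and miR-106b-5p by 0.74 (SE 0.11), while the near-identical miR-20a-5p did not pass (0.10, SE 0.07). All 406 members had a median of -0.05, against 0.45 and 0.32 in these families.

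The miR-181 seed was divided. miR-181c-5p was at 183, 213 and 189 CPM in the controls and at 364, 352 and 346 CPM after Tudor-SN siRNA, and miR-181d-5p, from the same chromosome 19 locus near NANOS3, at 507, 471 and 492 CPM and 742, 716 and 813 CPM. Both rose without overlap, with log2 fold changes of 0.85 (SE 0.09) and 0.63 (SE 0.07). The more abundant miR-181a-5p was at 10273, 9773 and 10170.3 CPM against 8404, 8607 and 8717 CPM and miR-181b-5p at 3780.2, 3425 and 3886 CPM against 2713, 2667 and 2613 CPM, both lower without overlap. The decrease of miR-181b-5p (-0.47, SE 0.06) ended in the fit over 12 libraries, and that of miR-181a-5p (-0.23, SE 0.05) ended under upper quartile scaling (-0.08) and turned in the fit over 12 libraries (0.10). miR-181a-5p and miR-181c-5p differ by few bases, as their sequences show, so reads could in part be shared.

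**Figure D3:**
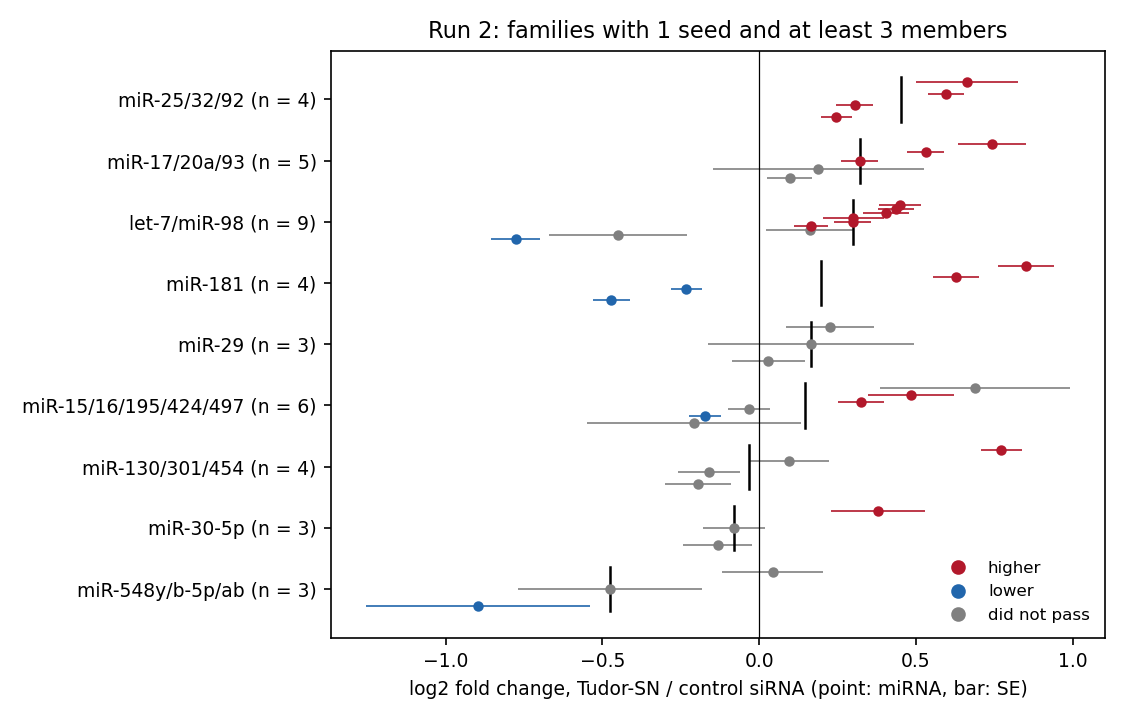
Log2 fold change after Tudor-SN siRNA for the members of the 9 families with 1 seed and at least 3 measured members among the 356 with a RefSeq sequence. Each point is 1 miRNA with its standard error, red where higher, blue where lower and grey where the test was not passed, and the black tick is the family median; the miR-25/32/92 family lies wholly above 0 and the miR-181 family falls on both sides.

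Of the let-7 family, whose members repress RAS and HMGA2 mRNAs, 6 of the 9 guides with 1 seed were higher and 1 was lower. let-7f-5p was at 4294 ± 305 in the controls and 5814 ± 66.6 after Tudor-SN siRNA, in CPM (SD, n = 3 and 3; 0.44, SE 0.06). let-7c-5p, which lies with miR-99a in MIR99AHG on chromosome 21, went the other way, from 601, 698 and 634 CPM to 357, 386 and 388 CPM (-0.78, SE 0.08), and neither overlapped. A cluster on chromosome 19 and the locus of let-7c on chromosome 21 also went different ways. Of the 6 members from the chromosome 19 cluster of miR-99b, let-7e and miR-125a, 3 were higher and 0 lower, with miR-99b-5p at 0.37 (SE 0.06) and let-7e-5p at 0.45 (SE 0.07). In contrast miR-99a-5p (-0.70, SE 0.08) and miR-125b-5p (-0.94, SE 0.12), which also has a hairpin on chromosome 11, were lower. The call of miR-99a-3p (-1.01, SE 0.36) ended under 7 alternatives, DESeq2 and upper quartile scaling among them, and without control replicate 1 or Tudor-SN replicate 3. The list that joins miR-10 with miR-99, miR-100 and miR-125 had 2 of 12 members higher and 7 lower, with a median of -0.56. Its lower members included miR-10a-3p (-0.87), which lies in neither of these loci.

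Further lists were described by their counts, to be read against the 23.2% higher and 26.4% lower of all members. Of 18 members from the miR-17-92 cluster and its paralogs, 11 were higher (9 without Tudor-SN replicate 3) and 2 lower, the latter miR-25-5p and miR-92a-1-5p (-0.59, SE 0.09), both minor arms. miR-221 and miR-222, X-linked repressors of the cell cycle inhibitor CDKN1B, had 3 of 3 higher. miR-221-3p was at 8357, 7824 and 7527 CPM in the controls and at 11571, 12034 and 13352 CPM after Tudor-SN siRNA, with no overlap (0.64, SE 0.06). The miRNAs in introns of CLCN5 had 4 of 8 higher and 0 lower, led by miR-532-5p (0.82, SE 0.07) and miR-660-5p (0.73, SE 0.08). Of the p53-induced miR-34 members, miR-34a-5p was higher at 0.63 (SE 0.14), and miR-34a-3p, at 0.95 (SE 0.38), reached 10 counts in no control and lost its call under 6 alternatives, DESeq2 and each fit without 1 control among them. In contrast miR-449a, which has the same seed and lies in an intron of CDC20B, was lower at -0.93 (SE 0.20). The miR-23/24/27 list, with 2 of 7 higher and 1 lower, and the miR-193 and miR-365 list, with 1 of 6 higher and 0 lower, were near the shares of all members, and both measured miR-320 members were higher. The collagen-repressing miR-29a-3p, miR-29b-3p and miR-29c-3p were at 0.03 (SE 0.12), 0.17 (SE 0.33) and 0.23 (SE 0.14) and did not pass.

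The primate-specific miR-548 family had 5 of 16 members lower, near the 26.4% of all members, and 1 higher (median -0.42), and under upper quartile scaling 2 were lower and 1 higher. Of the 14 entries that overlie other noncoding RNA, 8 were lower and 0 higher (median -0.41). Besides miR-1248 they included miR-4485-3p (-1.11, SE 0.20), miR-3960 (-1.08, SE 0.18) and miR-4454 (-0.27, SE 0.10), the call of the last ending under RLE scaling. In the fit over 12 libraries, where the median of all members was 0.28, these 2 lists had medians of -0.09 and -0.08. The 72 entries named without an arm had 9 higher and 25 lower (median -0.29), against 48 and 39 of 169 named 5p and 37 and 43 of 165 named 3p. In the fit over 12 libraries these 72 entries had 15 higher and 11 lower (median 0.04), against 148 and 50 (median 0.28) of all 406 members.

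The miR-30 family, abundant in kidney epithelium, was divided by arm. All 6 of its 3p arms were lower (median -0.75), and of its 5 5p arms 1 was higher and 0 lower (median 0.01). miR-30a-3p was at 705, 694 and 749 CPM in the controls and at 421, 474 and 476 CPM after Tudor-SN siRNA, and the groups did not overlap (-0.65, SE 0.07). The 3p arms were lower in 5 of 6 cases under upper quartile scaling and in 3 of 6 in the fit over 12 libraries, with 0 higher in either.

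Because a ratio of arms within a library does not depend on scaling between libraries, the balance of 5p and 3p was tested for the 92 hairpins with both arms among the members. The balance passed in 35 hairpins (38%), with the 3p arm lower relative to the 5p arm in 22 and higher in 13. Without Tudor-SN replicate 3 the counts were 20 and 10. The counts depended on control replicate 2, without which they were 13 and 4, on control replicate 1 (13 and 7), and for the second count on Tudor-SN replicates 1 and 2 (8 without either). For single miRNAs, both arms of a hairpin were higher in 12 cases and lower in 11, 1 arm alone passed in 44, neither passed in 20, and the arms passed in opposite directions in 5, namely miR-25, miR-27b, miR-21, miR-30e and miR-3065.

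miR-25 had the clearest reversal. Its 5p arm made up 0.447%, 0.577% and 0.518% of the hairpin's counts in the controls and 0.135%, 0.166% and 0.132% after Tudor-SN siRNA. The ranges did not overlap, and the 3p arm gained 1.85 relative to the 5p arm on the log2 scale (SE 0.16, edgeR adjusted p = 2e-06). In miR-27b, whose 3p arm represses adipogenic PPARG, the 5p arm fell from 1.80%, 1.38% and 1.11% of the counts to 0.824%, 0.771% and 0.63%. miR-27a moved alike, from 10.9%, 12.9% and 6.73% to 4.10%, 5.70% and 3.20% of 5p, at 1.35 (SE 0.34), a call that ended without control replicate 2.

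miR-21, a repressor of PDCD4, moved the opposite way. Its 3p arm made up 48.0%, 51.5% and 48.3% of the counts in the controls and 36.2%, 34.8% and 28.9% after Tudor-SN siRNA, a change of -0.96 relative to 5p (SE 0.13, edgeR adjusted p = 0.00016). In miR-30e the 5p arm rose from 2.54%, 3.77% and 3.70% to 5.94%, 6.06% and 6.38%, and the 3p arm also fell relative to the 5p arm in the other 3 miR-30 hairpins tested. The call of miR-30e-5p as a single miRNA ended without any 1 of the 6 libraries, whereas that of the arm ratio held in each. miR-3065 changed by -1.75 (SE 0.39), its 3p arm going from 50.0%, 61.5% and 66.7% to 34.6%, 34.3% and 19.4%. This hairpin overlaps that of miR-338 on the other strand, and whether the counting used strand is not given in the sources used here, so both are uncertain.

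**Figure D4:**
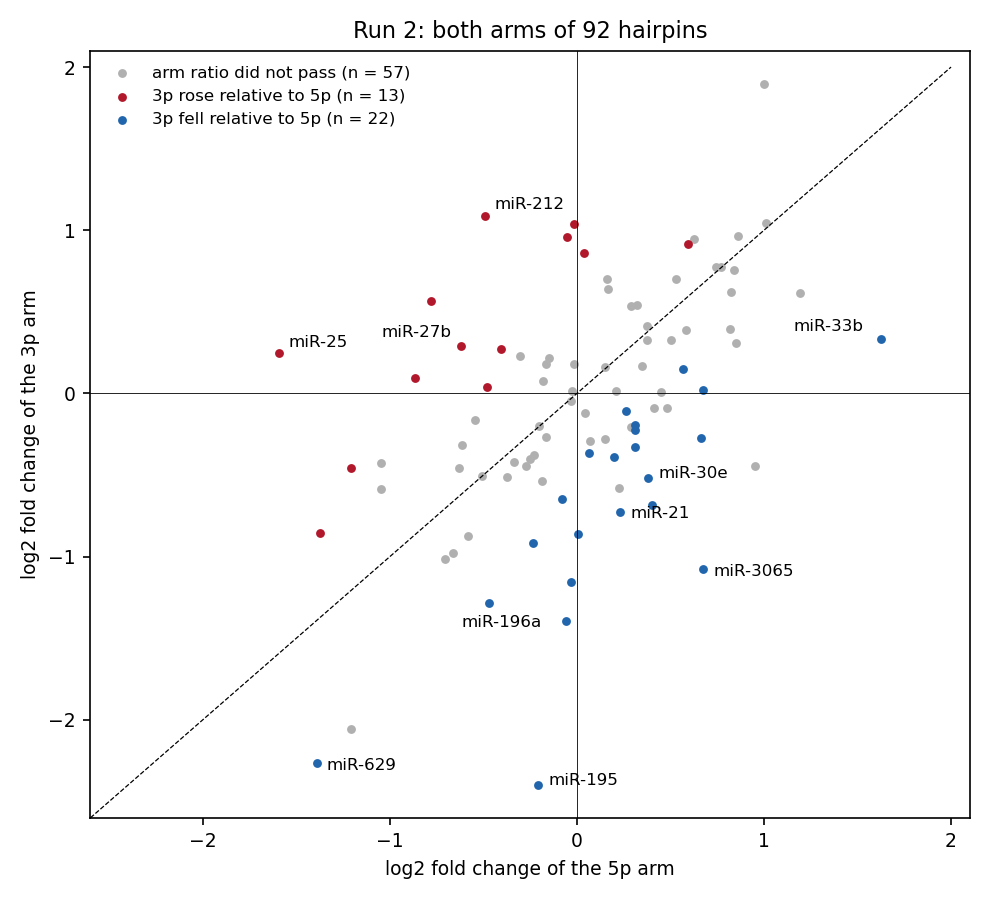
Log2 fold change of the 3p arm (vertical axis) against that of the 5p arm (horizontal axis) for 92 hairpins with both arms measured. Red points are the 13 hairpins whose 3p arm rose relative to the 5p arm, blue points the 22 where it fell, grey points the 57 that did not pass, and the dashed line marks equal change; miR-25 and miR-27b lie in the upper left and miR-3065, miR-21 and miR-30e in the lower right.

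The largest arm change was that of miR-195, whose 3p arm fell by 2.20 relative to 5p (SE 0.40). The 5p arm went from 18.5%, 19.6% and 6.17% of the counts to 40%, 45.0% and 58.8%. In the HOX-encoded miR-196a the 3p arm went from 2.75%, 2.24% and 1.88% to 1.21%, 0.76% and 0.647%, and in miR-629, where both arms fell, the 3p arm still fell from 20%, 20.4% and 19.7% to 11.3%, 12.9% and 11.8%. In 57 hairpins the rarer arm held under 25% of the counts in every library, a limit chosen after the values were seen. Of these 21 passed, the rarer arm falling in 16 and rising in 5, and the median change of the rarer arm was -0.29. The share that passed, 36.8%, was near the 38% of all 92 hairpins. Over all 92, the rarer arm fell in 22 and rose in 13 of those called, with a median of -0.16. It was defined by counts summed over the 6 libraries, where the deeper Tudor-SN libraries weighed more, so these directions follow in part from the definition. In miR-3065, miR-212, miR-32 and miR-33b, all counted as falls, that arm was the larger in controls, at means of 59.4%, 63.0%, 56.0% and 53.1%. miR-9 (1.06, SE 0.33) and miR-30e were among the 5 of the 57 in which the rarer arm rose. The call of miR-9 ended without any 1 control library and without Tudor-SN replicate 1.

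In the 6 libraries of run 1, 31 of these hairpins could be tested, 11 of them called in run 2. In 3 of the 11 (27.3%) the arm balance also passed in run 1, each in the same direction, a share near the 22.6% (7) of all 31. Of the 11, 9 had the same sign in both runs, and miR-3184 and miR-582 did not. miR-10a, miR-10b, miR-17 and miR-99b passed in run 1 but not in run 2. miR-181a was at -0.68 (SE 0.09) in run 2 and -1.43 (SE 0.39) in run 1, miR-148a at 0.52 (SE 0.10) and 0.76 (SE 0.17), and miR-9 at 1.06 (SE 0.33) and 0.81 (SE 0.25). The other 8 did not pass in run 1, among them miR-27b (0.50, SE 0.46) and miR-30e (-0.18, SE 0.40).

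Sequences of 356 members allowed a count of CA and UA dinucleotides whose bases both lay more than 5 bases from either end. Of the 79 members with none, 10 were higher (12.7%) and 27 lower (34.2%), with a median of -0.22. Of the 277 with at least 1, 75 were higher (27.1%) and 64 lower (23.1%), with a median of 0.04. The shares did not move steadily with the number. Of the 150 with 1, 41 were higher (27.3%) and 35 lower (23.3%), with a median of 0.06. Of the 78 with 2, 18 were higher (23.1%) and 23 lower (29.5%), with a median of -0.03. Of the 49 with 3 or more, 16 were higher (32.7%) and 6 lower (12.2%), with a median of -0.02. Over all 356 the shares were 23.9% higher and 25.6% lower. miR-195-3p and miR-25-5p were among the lower miRNAs with 0 and miR-33b-5p among the higher ones with 0, whereas miR-16-2-3p held 1. No test was made of this description, and base composition moved with it: the median GC content was 59.1% in members with 0 and 47.6% in those with at least 1, and its part was not tested. Among members with 10 counts in all 6 libraries the pattern was alike, with 8 higher and 24 lower of 58 against 64 and 54 of 203. Without Tudor-SN replicate 3 the members with 0 had 10 higher and 24 lower. In the fit over 12 libraries they had 18 higher and 12 lower (median 0.11), against 118 and 30 (median 0.36) of those with at least 1.

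**Figure D5:**
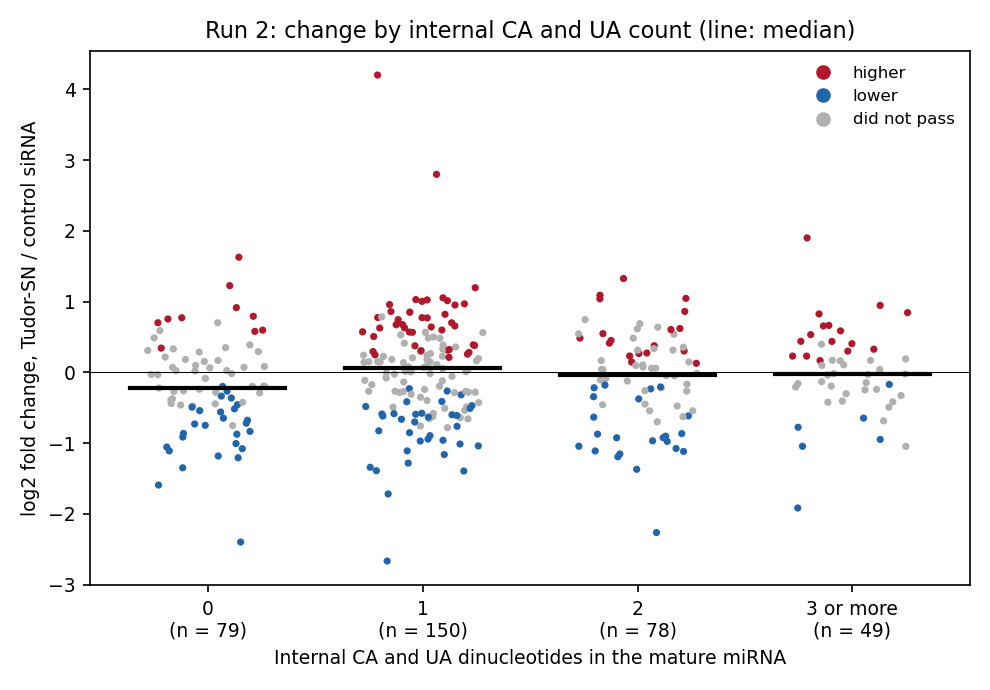
Log2 fold change after Tudor-SN siRNA by the number of internal CA and UA dinucleotides for the 356 miRNAs with a RefSeq sequence. Each point is 1 miRNA, red where higher, blue where lower and grey where the test was not passed, and the black line is the class median; the medians are -0.22 with 0 dinucleotides, 0.06 with 1, -0.03 with 2 and -0.02 with 3 or more.

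Against run 1 the change in run 2 was compared by a siRNA by run term over all 12 libraries for 211 miRNAs. In that fit 64 passed (30.3%), with the run 2 change lower in 58 (27.5%) and higher in 6 (2.84%). That split depended on scaling: the median difference was -0.28, against 0.05 with TMM within each run, where 25 were lower and 16 higher, and leaving out any 1 library of run 2 gave 7 to 16 lower and 24 to 31 higher. Only 17 miRNAs (8.06%) passed with 1 sign under all 4 scalings tried. Abundant among them were let-7f-5p, which rose by 0.91 (SE 0.09) in run 1 and 0.44 (SE 0.06) in run 2, and miR-99b-5p, which rose by 1.11 (SE 0.08) and 0.37 (SE 0.06). RNA fraction, size selection, sequencer and depth all differed between runs and cannot be told apart. miR-378a-3p, at 0.58 (SE 0.10) in run 1 and 0.97 (SE 0.05) in run 2, passed under each scaling but that over all 12 libraries. miR-10a-5p, at -0.22 (SE 0.04) and -0.58 (SE 0.07), passed under each but RLE. miR-375, miR-126-5p, miR-16-2-3p, miR-92a-3p and miR-1248 did not pass this test under any of the 4 scalings. The SE of the term was 0.67 for miR-16-2-3p and 0.50 for miR-1248, so for these not passing says little.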

How the data were processed

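Small RNA libraries of run 2, 3 per siRNA, were compared, and those of run 1 entered only the test of the difference between runs, the run 1 arm test and 1 alternative. The deposited table gave the authors' raw counts per mature miRNA, which served for all tests. Its DESeq-normalized signal, a deposited count divided by a factor for each library, and its deposited RPM values served only as a check of the counts. The authors' adjusted p-value and log2 fold change were read from the deposited table for 3 miRNAs. Per the submitters' processing notes, cutadapt, Bowtie2, DESeq2 and DESeq were used, with no versions. The sources used here do not give aligner settings, build, annotation or multimapping rules.

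Counts were tested with edgeR 4.0.16 (quasi-likelihood F test) in R 4.3.3 on the 6 libraries, scaled by TMM, with two-sided p-values adjusted by Benjamini-Hochberg over all 406 miRNAs and a threshold of 0.05. Arm balance was tested over 92 hairpins in the same way with the library as a block, a term for the arm and one for the arm by siRNA. Alternatives used DESeq2 1.42.0, limma 3.58.1, other scalings, filters and designs, and left out each library in turn. All tests were checked on simulated counts. Ratios of shares carry exact binomial intervals, and a count of 0 allows up to 3 counts, or 0.955 to 3.23 CPM, for counting error only. Mature sequences of 356 members and coordinates came from RefSeq (GRCh38.p14), and host genes from GENCODE. Named miRNAs were, by rule, the 12 largest increases and decreases without overlap, the 10 most abundant, the 4 most abundant and the called members of each list, and the arm and run differences that were largest or passed under each scaling. Partner arms and markers of other cell types were added. The members and lists were chosen with earlier results of these data known.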

Additional observations from a re-analysis of the deposited data

Results flagged for a closer look

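For 17 miRNAs the change after Tudor-SN siRNA differed between the runs by the siRNA by run term under every scaling tried, and the first value after each name is the log2 difference, run 2 minus run 1, in the fit scaled over all 12 libraries. That scaling shifted them by -0.35 to -0.32 (median -0.34) against the difference of the changes fitted within each run. With library size alone the 11 negative ones ran from -0.87 to -0.33 and the 6 positive ones from 1.30 to 2.1. The run 2 change was lower for miR-1180-3p (-1.32), miR-3529-3p (-1.30), miR-20a-5p (-1.15), miR-125a-5p (-1.14), miR-99b-5p (-1.07), miR-98-5p (-1.06), let-7g-5p (-0.97), miR-501-3p (-0.95), miR-10b-5p (-0.82), let-7f-5p (-0.81) and miR-182-5p (-0.79). With TMM within each run, RLE and library size alone, the difference was -0.48, -0.44 and -0.37 for let-7f-5p, -0.49, -0.45 and -0.37 for miR-10b-5p, and -0.45, -0.42 and -0.33 for miR-182-5p. The differences of let-7f-5p, miR-98-5p, miR-10b-5p and miR-182-5p no longer passed when certain single libraries of run 2 were left out.

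It was higher for miR-374b-5p (0.85), miR-1260a (0.94), miR-1260b (1.08), miR-4454 (1.13), miR-3960 (1.65) and miR-619-5p (1.66). Of these, miR-1260a, miR-1260b, miR-4454, miR-3960 and miR-619-5p belong to the entries that overlie other kinds of noncoding RNA. miR-4454 was at -1.73 (SE 0.09) in run 1 and at -0.27 (SE 0.10) in run 2, and miR-3960 at -3.05 (SE 0.38) and -1.08 (SE 0.18). Of those with the run 2 change lower, miR-10b-5p was at 0.30 (SE 0.05) in run 1, without overlap, and at -0.19 (SE 0.07) in run 2, with overlap. It passed in both with opposite signs, though its run 2 call ended under RLE scaling. miR-3529-3p, at 0.31 (SE 0.11) in run 1 and -0.65 (SE 0.09) in run 2, also passed in both with opposite signs, though its run 1 groups overlapped. It lies on the strand opposite MIR7-2, and whether the counting used strand is not given in the sources used here, so its values are uncertain. RNA fraction, size selection, sequencer and depth differed between the runs and cannot be told apart.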

How the results depend on the processing

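The fit scaled over all 12 libraries moved both counts of run 2, to 148 higher and 50 lower. It also turned miR-10b-5p (0.15), miR-15b-5p (0.30), miR-16-5p (0.16), miR-181a-5p (0.10), miR-191-5p (0.31), miR-4454 (0.066) and miR-9-5p (0.32), and upper quartile scaling turned miR-191-5p (0.13). Leaving out 1 library gave 74 to 82 higher and 82 to 96 lower. No filter gave 106 higher and 77 lower, DESeq2 85 and 80, and library size alone 106 and 76. Of 2176 values of 131 named miRNAs under alternatives, 159 lost their call, 25 gained 1 and 8 turned. The difference between runs gave 16 higher and 25 lower with TMM within each run, 14 and 11 with RLE, 22 and 13 with library size alone, 33 lower with 10 counts in all 12 libraries, and 24 to 31 higher and 7 to 16 lower without 1 library. Arm balance gave 8 with the 3p arm up where both arms reached 10 counts in all 6 libraries, and 4 to 10 up and 13 to 20 down without 1 library. The causes were not tested, but a fit without 1 library has fewer samples.

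Replicate numbers were shared by the labels of both groups. Deviations of same-numbered libraries from their group means correlated at -0.01, 0.18 and 0.37. Tudor-SN replicates 2 and 3 correlated best with the control of the same number, but Tudor-SN replicate 1 with control replicate 2 (0.44). With 3 libraries per group these values cannot settle whether the numbers pair the libraries. The replicate block gave 93 higher and 110 lower, 7 and 60 for the difference between runs, and 11 and 20 for the arms. Rare miRNAs set the limit of depth: below 10 CPM the median standard error was 0.39 on the log2 scale.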
